A study of Mus musculus with 75 samples.

Results

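The alpha-globin and beta-globin gene clusters were followed by position as mouse erythroid cells left mitosis. The alpha window was the 1 Mb of chromosome 11 from 31700000 to 32700000 (mm9) around the genes Hba-a1 and Hba-a2, which were taken to lie between 32184000 and 32197000. The beta window was the 1.2 Mb of chromosome 7 from 110400000 to 111600000 around Hbb-b1 and Hbb-b2, taken to lie between 110960000 and 111010000. The windows held 251 of the 181220 CTCF peaks, 105 of the 65630 Rad21 peaks, 89 of the 38435 domains, 32 of the 29075 loops and 3 of the 5598 stripes deposited over all stages.

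The cells were G1E-ER4, a GATA1-null proerythroblast line of strain 129 that was left uninduced, so every group shared the absence of active GATA1. Nocodazole at 200 ng/ml for 7 to 8.5 h arrested them in mitosis. Cells were then sorted before release (0 min, pro-metaphase) or after 25 min (ana/telophase), 60 min (early G1), 120 min (mid G1) or 240 min (late G1). Where values for all lists are given in a row, they follow this order, and asynchronous cells come last. ChIP-seq of CTCF (13 samples) and of Rad21 (12 samples) also covered asynchronous cells, and in situ Hi-C had 2 samples in each of the 5 stages. The files used here hold no expression values, so the labelled erythroid identity was not checked against markers. Each deposited list pools the samples of its stage, so no value below has a spread between replicates and none has a test. Read depth is unknown and can change how many features a stage has. The 95% intervals are exact binomial (Clopper-Pearson) and reflect counting error alone.

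The alpha cluster supplies the alpha chains of haemoglobin and the beta cluster the beta chains, and red cell precursors switch both on together. The enhancers of the alpha genes lie on the side of Nprl3, in part inside that gene, whereas the beta genes are driven by a locus control region next to the embryonic gene Hbb-y. CTCF binds a defined DNA motif and stops the loop-extruding cohesin ring, of which Rad21 is a subunit. Mitotic chromosomes lose most of their loops and domains, and these are rebuilt after mitosis.

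By order in the GRCm38.p6 gene table, the alpha cluster runs Hba-x, Hba-a1, Hbq1b, Hba-a2, Hbq1a. Hba-x is the embryonic zeta gene, Hba-a1 and Hba-a2 are the adult genes, and Hbq1b and Hbq1a are theta genes. Its 6 nearest protein-coding neighbours on the low side are Nsg2, Il9r, Snrnp25, Rhbdf1, Mpg and Nprl3. Those on the high side are Sh3pxd2b, Ubtd2, Efcab9, Stk10, Fbxw11 and Smim23. The beta cluster runs Hbb-bt, Hbb-bs, Hbb-bh2, Hbb-bh1, Hbb-y, where Hbb-bt and Hbb-bs are the adult genes of the reference haplotype and Hbb-bh1 and Hbb-y are embryonic. All 6 nearest protein-coding neighbours on each side are olfactory receptor genes, from Olfr67 on the low side to Olfr66 on the high side. Hbb-b1 and Hbb-b2 have no promoter entry.

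The promoters are shown because the copies differ in how well reads can be told apart, and because a CTCF motif part lies in the theta promoters. Each line gives the 250 bases before the start from RefSeq (GRCm38.p6), 5′ to 3′ on the gene's strand. Capitals mark a match to GGNGGCAG (part of the CTCF motif), AGATAA (recognised by GATA factors), TATAAA or AGGGGGCGC on either strand. The last is another form of largely the same part of the CTCF motif, not a separate part. AGGGGGCGC was added after the sequences had been seen, and on these lines it reads as its reverse complement.
Hba-a1, chr11:32283422-32283671, plus strand: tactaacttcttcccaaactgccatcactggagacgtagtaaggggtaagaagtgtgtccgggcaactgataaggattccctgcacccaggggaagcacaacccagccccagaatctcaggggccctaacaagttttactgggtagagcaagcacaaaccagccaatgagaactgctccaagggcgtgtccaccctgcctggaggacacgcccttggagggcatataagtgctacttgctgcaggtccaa
Hbq1b, chr11:32286714-32286963, plus strand: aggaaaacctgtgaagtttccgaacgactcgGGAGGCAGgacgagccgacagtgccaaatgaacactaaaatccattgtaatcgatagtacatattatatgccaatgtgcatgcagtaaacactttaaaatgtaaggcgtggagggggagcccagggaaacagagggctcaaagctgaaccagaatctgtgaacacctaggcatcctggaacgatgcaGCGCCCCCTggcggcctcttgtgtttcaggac
Hbq1a, chr11:32299819-32300068, plus strand: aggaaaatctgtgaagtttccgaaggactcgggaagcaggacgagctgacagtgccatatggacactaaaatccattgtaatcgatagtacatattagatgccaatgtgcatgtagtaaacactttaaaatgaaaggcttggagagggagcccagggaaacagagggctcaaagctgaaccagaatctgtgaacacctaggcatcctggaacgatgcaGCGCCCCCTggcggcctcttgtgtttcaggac
Hbb-bs, chr7:103827929-103828178, minus strand: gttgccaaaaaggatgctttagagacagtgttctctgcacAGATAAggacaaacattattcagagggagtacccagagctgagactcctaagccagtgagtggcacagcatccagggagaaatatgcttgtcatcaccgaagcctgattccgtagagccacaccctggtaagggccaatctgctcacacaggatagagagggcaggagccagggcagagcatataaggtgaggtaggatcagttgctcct
Hbb-bt, chr7:103813924-103814173, minus strand: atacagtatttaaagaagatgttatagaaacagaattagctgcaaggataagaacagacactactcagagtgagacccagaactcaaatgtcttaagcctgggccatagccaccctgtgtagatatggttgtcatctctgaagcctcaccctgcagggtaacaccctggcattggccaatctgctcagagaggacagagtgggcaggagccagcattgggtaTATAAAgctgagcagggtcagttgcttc

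The promoter of Hba-a2 was the same as that of Hba-a1 at 297 of 297 compared bases. The theta promoters of Hbq1b and Hbq1a shared 286 of 300 bases (95.3%). The adult beta promoters of Hbb-bs and Hbb-bt shared 168 of 299 bases (56.2%). Peaks on the duplicated alpha segments are therefore uncertain as to the copy, since the handling of reads that fit both copies was not given in the sources used here.

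AGGGGGCGC occurred in the promoters of Hbq1b and Hbq1a and in 1.11% of 32851 promoters of the same length. In both, its first base lay 32 bases before the start. GGNGGCAG occurred in Hbq1b (9.93% of promoters hold it), AGATAA in Hbb-bs and Hbb-bh2 (9.99%) and TATAAA in Hba-x and Hbb-bt (12.4%). CACCC, not capitalised above, occurred in Hba-x, Hba-a1, Hba-a2, Hbb-bs, Hbb-bt and Hbb-y (52.0%). None of these motifs overlapped another in the printed promoters.

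CTCF was denser around the alpha genes than around the beta genes at every stage. In late G1 the alpha window held 36 CTCF peaks and the beta window 13, or 36 and 10.8 per Mb, against 12.7 per Mb over the whole list. The median of 2628 windows of 1 Mb was 9 late-G1 CTCF peaks, with quartiles of 3 and 18. The alpha window was thus above the upper quartile and the beta density between the quartiles.

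By stage, the alpha window held 14, 32, 34, 37, 36 and 35 CTCF peaks. The beta window held 4, 9, 12, 13, 13 and 12. Both windows therefore had most of their CTCF peaks by ana/telophase. Both reached their highest number in mid G1, as did the whole list (36009 peaks).

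Rad21 was listed in neither window in pro-metaphase. From ana/telophase on, the alpha window held 9, 12, 18, 20 and 20 Rad21 peaks and the beta window 3, 3, 7, 7 and 6. The median 1-Mb window had 5 late-G1 Rad21 peaks, with quartiles of 1 and 11.

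**Figure D1:**
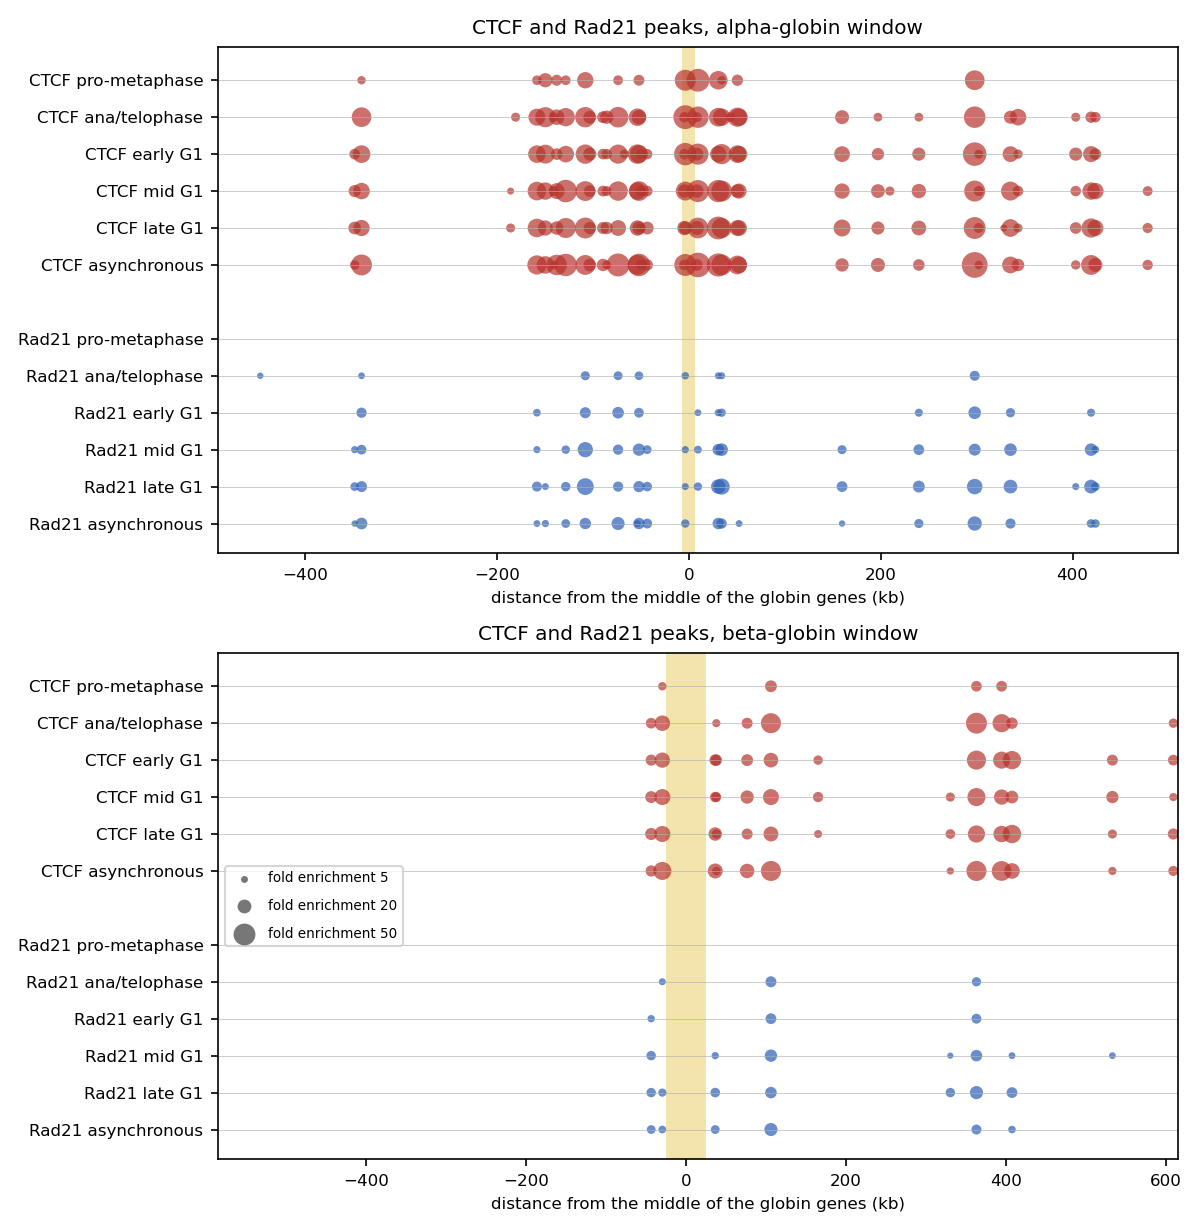
CTCF (red) and Rad21 (blue) peaks by list (rows) and by distance in kb from the middle of the globin genes (yellow band), with dot area proportional to the deposited fold enrichment. CTCF flanks the alpha genes on both sides and lies between their ends, the low side of the beta window is empty but for a pair of sites 4.1 and 18.1 kb from the genes, and the pro-metaphase rows of Rad21 are empty.

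Of the late-G1 CTCF peaks, 14 of 36 in the alpha window (38.9%, interval 23.1 to 56.5%) were found in pro-metaphase. In the beta window it was 4 of 13 (30.8%, interval 9.09 to 61.4%). Over the whole list the share was 33.7%, inside both intervals, so retention in mitosis at these loci was not told apart from the background. Within 250 kb of the genes the pro-metaphase shares were 48% (alpha) and 28.6% (beta). Over the full windows, the shares in ana/telophase were 80.6% and 69.2% (whole list 82.9%), and in early G1 91.7% and 92.3% (whole list 91.8%). In mid G1 they were 97.2% and 100% (whole list 96.0%). In asynchronous cells they were 94.4% and 92.3% (whole list 91.1%).

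The late-G1 Rad21 peaks came back later. None of 20 in the alpha window (interval 0 to 16.8%) and none of 7 in the beta window (interval 0 to 41.0%) was found in pro-metaphase, against 2.47% of the whole list. In ana/telophase it was 8 of 20 (40%) and 3 of 7 (42.9%), against 36.3%, and the alpha share was 25% when peaks had to share 50% of their length. In early G1 it was 12 of 20 (60%, interval 36.1 to 80.9%) and again 3 of 7, against 45.1%. In mid G1 it was 18 of 20 (90%) and 6 of 7 (85.7%), against 77.6%, and the same counts held in asynchronous cells, against 68.4%. Every one of these whole-list shares lay inside the intervals of both windows.

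Peaks that overlapped in any list were merged into sites. The alpha window had 41 CTCF sites, of which 14 were in all 6 lists and 15 in every list but pro-metaphase. The beta window had 13, of which 4 were in all 6 lists and 5 in every list but pro-metaphase. At all 20 alpha sites where both proteins were listed in the 5 timed stages, CTCF was listed in an earlier stage than Rad21. At beta sites this held for 7 of 8, and at the other CTCF and Rad21 were first listed in the same stage. Each CTCF list is also longer than the Rad21 list of its stage (11604 against 596 peaks in pro-metaphase, 33499 against 18958 in late G1), and the part of list length in this order was not tested.

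In late G1, 20 of 36 alpha CTCF peaks (55.6%) and 7 of 13 beta peaks (53.8%) overlapped a Rad21 peak, against 53.7% of the whole list. Of all CTCF sites, 19 in the alpha window and 5 in the beta window never had a Rad21 peak. A single alpha site, chr11:31743959-31744107, had Rad21 in ana/telophase (fold enrichment 4.33) and no CTCF peak in any list.

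The CTCF peaks kept in pro-metaphase had a higher median late-G1 fold than the others in both windows. In the alpha window the late-G1 fold enrichment of the 14 kept peaks was 31.8 at the median (17.3 to 54.6), and that of the 22 others was 17.1 (5.19 to 38.4). In the beta window it was 27.7 (23.2 to 30.9) for the 4 kept peaks and 12.7 (6.67 to 35.6) for the 9 others. The ranges overlapped in both windows, and the highest beta fold was among the peaks not kept. Fold enrichments are the authors' own values within the late-G1 list. Kept and other peaks were not compared over the whole list, so this is not shown to be particular to these loci.

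**Figure D2:**
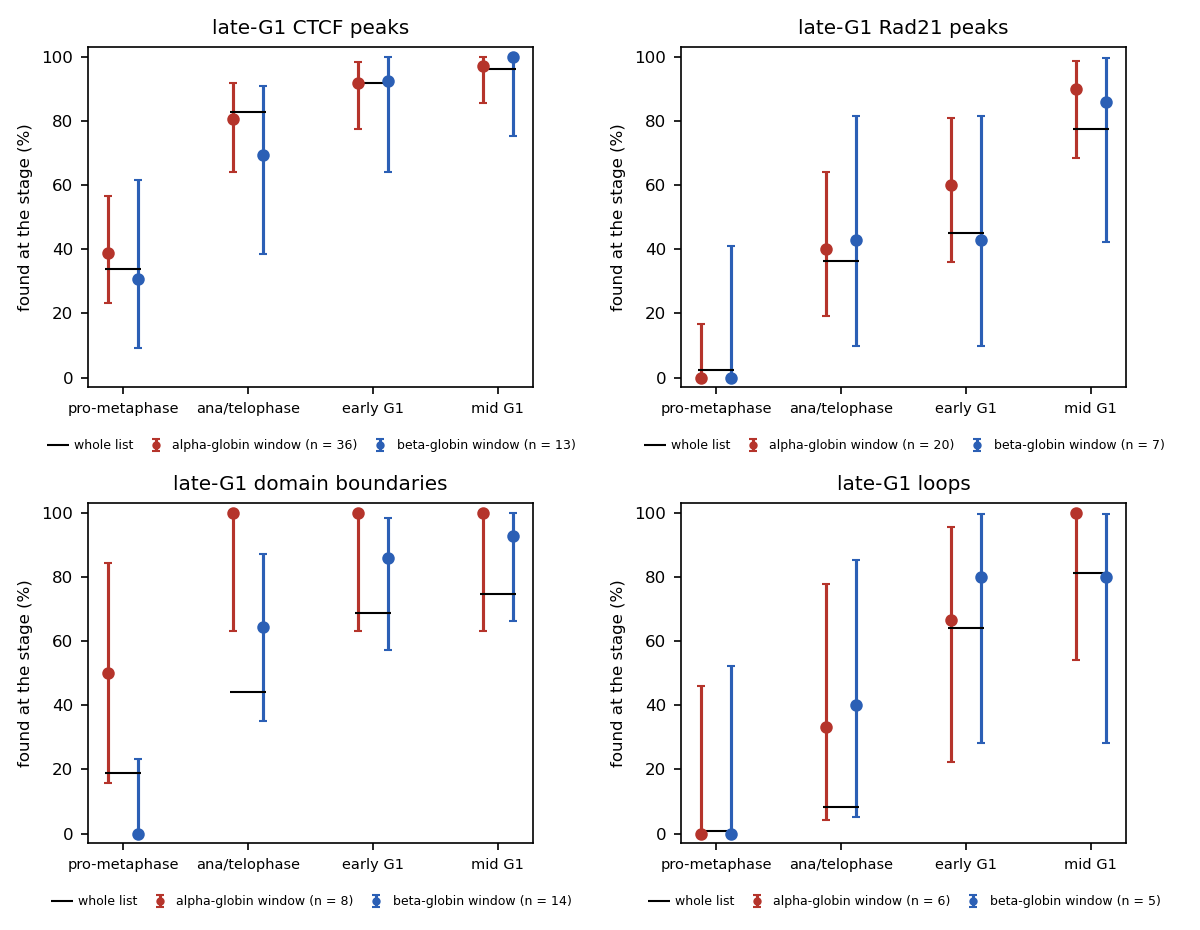
Share (%) of the late-G1 CTCF peaks, Rad21 peaks, domain boundaries and loops of each window that was found at each earlier stage, with exact 95% binomial intervals, and the share over the whole list (black dashes). The intervals of the windows overlap each other at every stage, and the widest gap between the points is at the boundaries in pro-metaphase, with 50% in the alpha window and 0% in the beta window.

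The highest pro-metaphase CTCF folds at either locus were those of a site just past the alpha genes and of a site within their span. The site at chr11:32186634-32187244, within the gene span, had fold enrichments of 46.1, 59.3, 52.5, 37.5, 17.3 and 50.5, lowest in late G1. The site at chr11:32199794-32200452, 2.8 kb past the genes, had 54.6, 48.0, 46.6, 50.6, 44.8 and 63.2. Fold enrichments depend on depth and background in each list, so they are given side by side and not as a change.

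Within the pro-metaphase list of 11604 CTCF peaks these sites ranked 410 and 162, in the top 3.61% and 1.40%. Within the late-G1 list the first stood in the top 52.2% and the second in the top 2.48%. Both kept a CTCF peak in all 6 lists.

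Rad21 was weak there. At the first site it was listed in ana/telophase (5.77), mid G1 (5.42), late G1 (5.02) and asynchronous cells (7.33). At the second it was listed in early G1 (4.94), mid G1 (6.44) and late G1 (7.45). Of the 5 alpha sites with the highest late-G1 CTCF fold, the second had the lowest late-G1 Rad21 fold.

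A further CTCF site, weaker in most lists, lay close below each of these. At chr11:32185866-32186247 the CTCF site had folds of 11.5, 11.5, 18.3, 21.6 and 11.9 from ana/telophase to asynchronous cells. Its counterpart, chr11:32198894-32199228, had 10.4, 17.5, 18.8, 20.9 and 14.3. Neither was listed in pro-metaphase and neither had Rad21. In late G1 the first of them (21.6) was above the neighbouring site within the gene span (17.3).

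The spacing of these peaks matched the duplication of the genes. The summits of the pair listed in all 6 lists were 13098, 13098, 13098, 13093, 13106 and 13113 bp apart. The motif AGGGGGCGC, capitalised above in the promoters of Hbq1b and Hbq1a, recurs at 13105 bp in GRCm38.p6. Those of the other pair were 12997 to 13032 bp apart. Positions of the 2 builds were not converted into each other, so the match is one of spacing only.

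On the high side the genes were followed by a dense group of CTCF sites. The first, chr11:32220987-32221714, 24.0 kb past the genes, had CTCF folds of 36.0, 36.5, 28.3, 51.5, 54.6 and 56.1. Its Rad21 folds from ana/telophase on were 5.01, 5.44, 14.04, 22.1 and 13.8. It had the highest late-G1 CTCF fold in either window.

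The next site, chr11:32224639-32225075, had a CTCF fold of 7.40 in pro-metaphase and 31.9, 42.6, 45.3, 41.6 and 45.2 thereafter. Its Rad21 folds were 5.22, 7.22, 16.6, 27.2 and 11.03 from ana/telophase on. At the edge of the group, chr11:32240989-32241493 had CTCF in all 6 lists (13.4, 38.4, 32.2, 19.4, 26.0 and 36.8) and never Rad21. Its neighbour chr11:32242767-32243226 had CTCF in every list but pro-metaphase (31.7, 28.8, 23.8, 26.0 and 27.2) and Rad21 in asynchronous cells only (4.90). A small site at chr11:32234162-32234343 had CTCF in ana/telophase only (10.1).

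On the low side, the side of Nprl3, 9 sites lay between 36.6 and 96.4 kb from the genes. The site nearest to them, chr11:32147117-32147438, had CTCF from early G1 on (11.3, 11.9, 17.3 and 13.8) and Rad21 from mid G1 on (8.16, 9.62 and 10.3). The site at chr11:32138388-32138935 had CTCF in all 6 lists (12.5, 21.8, 34.2, 40.5, 18.1 and 53.2) and Rad21 from ana/telophase on (7.95, 9.97, 15.9, 13.2 and 13.6). Its close neighbour chr11:32136763-32137438 had CTCF from ana/telophase on (32.2, 39.6, 31.0, 24.8 and 41.1) but Rad21 only in asynchronous cells (5.01).

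Farther down, chr11:32116605-32117257 had CTCF in all 6 lists (10.0, 44.2, 38.4, 39.8, 26.3 and 55.1) and Rad21 from ana/telophase on (8.38, 14.3, 11.03, 10.9 and 17.9). The remaining 5 sites of this side never had Rad21. They were chr11:32087325-32087630, chr11:32101058-32101331 and chr11:32104987-32105250, listed from ana/telophase on, chr11:32140419-32140652, listed from early G1 on, and chr11:32123402-32123579, listed in early G1 only. Their late-G1 folds, where listed, were 15.9, 15.0, 15.9 and 8.35 in the order given.

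The other alpha sites with the highest late-G1 CTCF folds lay farther out. The site chr11:32488207-32488909, 291.2 kb past the genes, had CTCF folds of 40.8, 48.5, 58.0, 46.1, 50.1 and 69.5 and Rad21 folds of 10.5, 16.7, 15.0, 25.3 and 21.5 from ana/telophase on. The site chr11:32082559-32082957, 101.0 kb below the genes, had 28.1, 43.2, 39.2, 41.0, 45.4 and 41.2, with Rad21 at 8.67, 12.8, 24.4, 29.8 and 13.6. The site chr11:32062148-32062610 had 9.98, 35.0, 29.0, 53.0, 41.8 and 52.6, with Rad21 from mid G1 on.

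At the beta locus the genes themselves carried no CTCF peak. In late G1 the 65.8 kb from 110955841 to 111021668, which span the genes, were free of CTCF, and 6 sites lay within 100 kb of the genes. On the low side, chr7:110955428-110955851, 4.1 kb from the genes, had CTCF in all 6 lists, with folds of 7.51, 25.2, 24.4, 26.8, 27.1 and 34.1. Its Rad21 was listed in ana/telophase (5.20), late G1 (7.02) and asynchronous cells (6.26). Next to it, chr7:110941459-110941921 had CTCF from ana/telophase on (12.0, 12.9, 14.8, 15.2 and 13.1) and Rad21 from early G1 on (5.76, 9.39, 9.32 and 8.02).

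On the high side, the side of Hbb-y and the locus control region, the nearest site was chr7:111021648-111021952, 11.6 kb from the genes. It had CTCF from early G1 on (14.1, 11.5, 19.0 and 23.5) and Rad21 from mid G1 on (5.62, 9.78 and 8.16), the latest start among the 6. The site beside it, chr7:111023033-111023291, had CTCF from ana/telophase on (7.01, 13.5, 10.2, 9.21 and 7.78) and no Rad21. The site chr7:111061549-111061823 had CTCF from ana/telophase on (12.6, 14.7, 18.5, 12.7 and 21.9) and no Rad21 either.

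The site chr7:111091250-111091688, 81.2 kb from the genes, had CTCF in all 6 lists (14.7, 42.0, 22.5, 26.6, 23.2 and 42.1). It also had the strongest Rad21 among the 6, at 12.7, 12.2, 16.2, 14.1 and 18.04 from ana/telophase on. Of the 6 sites near the beta genes, 2 were thus listed for CTCF in pro-metaphase, with folds of 7.51 and 14.7.

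The other beta sites with high late-G1 CTCF lay on the high side. The site chr7:111392728-111393060 had 35.6 in late G1 and was not listed in pro-metaphase. The site chr7:111348174-111348742 had CTCF folds of 12.0, 45.8, 38.2, 34.3, 30.9 and 42.1, with Rad21 from ana/telophase on (8.96, 10.3, 14.04, 18.2 and 10.4). The site chr7:111379593-111380296 had 12.2, 34.7, 30.6, 24.4, 28.3 and 40.9 and never had Rad21.

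Beyond its pair of sites next to the genes, the low side of the beta window held no CTCF. No list had a CTCF peak from 110400001 to 110941458 (541 kb). Over all lists together this gap extended below the window to 110068500, 873 kb in all. Of 33479 gaps between neighbouring late-G1 peaks, 1.12% were as long or longer. These reference gaps come from the late-G1 list alone, whereas the gaps of the windows are free of CTCF in every list. The longest gap of the alpha window was 155 kb, from 31849926 to 32004806, a length that 10.3% of gaps reached.

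A domain around the alpha genes was already listed in pro-metaphase, whereas none was listed around the beta genes. The alpha genes lay in a domain from 32060001 to 32240000 (180 kb) in pro-metaphase. The smallest domain that held them was 32040001 to 32250000 (210 kb) in ana/telophase and 32030001 to 32250000 (220 kb) in early G1. It was 32040001 to 32240000 (200 kb) in mid G1 and 32040001 to 32250000 (210 kb) in late G1. The size of this domain therefore moved by no more than 4 bins of 10 kb across the 5 lists.

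No pro-metaphase domain was listed between 109640000 and 112500001 on chromosome 7, a gap of 2860 kb that covers the whole beta window. Of 1-Mb windows, 50.9% held no pro-metaphase domain, and the alpha window was touched by 4. The smallest domain that held the beta genes was 110910001 to 111110000 (200 kb) in both ana/telophase and early G1. It was 110930001 to 111100000 (170 kb) in mid G1 and 110900001 to 111110000 (210 kb) in late G1.

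In mid G1 and late G1 more domains held the beta genes than the alpha genes. Over the 5 stages the alpha window was touched by 4, 6, 11, 7 and 10 domains and the beta window by 0, 6, 11, 19 and 15. The beta genes lay in 0, 1, 3, 6 and 4 domains, the largest of 2810 kb from early G1 on. The alpha genes lay in 1, 1, 3, 1 and 3, the largest of 640 kb in early G1 and 1130 kb in late G1.

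**Figure D3:**
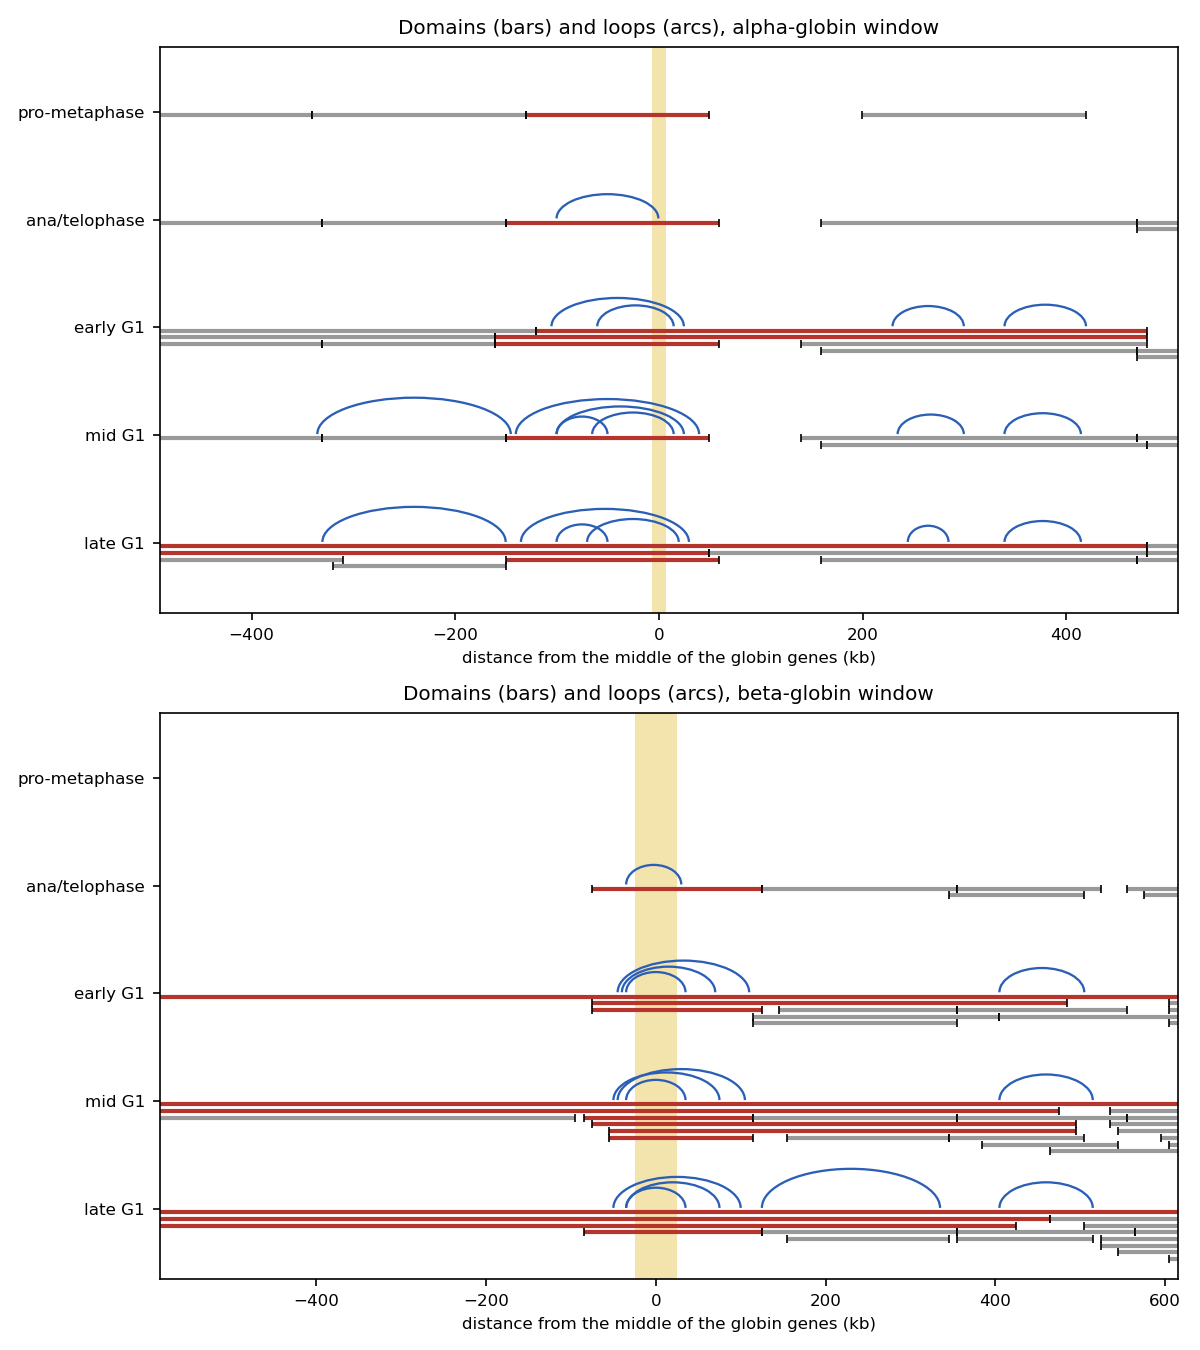
Domains (bars with ticks at their ends, red where they hold the globin genes, grey elsewhere, cut at the window edge) and loops with both anchors in the window (blue arcs between anchor middles) by stage, against the distance in kb from the middle of the globin genes (yellow band). The red alpha domain of 180 to 220 kb is present in every row, while the beta window has neither bars nor arcs in pro-metaphase.

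From ana/telophase on, both edges of the smallest alpha domain lay closer to CTCF than those of the smallest beta domain. A boundary at 32240000, 43 kb from the genes, was the upper edge of this alpha domain in pro-metaphase and mid G1. In late G1 it was the upper edge of a larger domain. It lay 1.1 kb from a CTCF peak each time. The nearest late-G1 Rad21 peak was 15 kb away. In ana/telophase, early G1 and late G1 the upper edge of the smallest domain was at 32250000, 6.8 kb from CTCF. Its lower edge lay within 2.3 kb of a CTCF peak in every list. The lower edge of the smallest beta domain was at 110910000 in ana/telophase and early G1, 31.5 kb from the nearest CTCF peak. In mid G1 it was at 110930000, 11.5 kb from both the nearest CTCF and the nearest Rad21 peak. In late G1 it was at 110900000, 41.5 kb from both. Its upper edge lay 8.4 kb from CTCF in mid G1 and 18.3 or 18.4 kb in the other lists. The alpha window was also denser in CTCF (36 against 10.8 peaks per Mb in late G1), and the part of density in these distances was not tested.

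Of the late-G1 boundaries, 4 of 8 in the alpha window (50%, interval 15.7 to 84.3%) had a pro-metaphase boundary within 20 kb. In the beta window it was 0 of 14 (interval 0 to 23.2%), and 18.8% over the whole list. The list share is inside both intervals, and the intervals overlap, so the loci were not told apart by this count. The alpha share was 25% with a match within 10 kb, and 0% when only domains that lie in no larger domain were used.

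In ana/telophase 8 of 8 alpha boundaries (interval 63.1 to 100%) and 9 of 14 beta boundaries (64.3%, interval 35.1 to 87.2%) were found, against 44.2% of the list. In early G1 it was 8 of 8 and 12 of 14 (85.7%), against 68.6%. In mid G1 it was 8 of 8 and 13 of 14 (92.9%), against 74.6%. The alpha interval lay above the whole-list share in ana/telophase. Boundaries of nested domains share positions and are not independent of each other.

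The first loop listed at each locus was in ana/telophase, with an anchor at or next to the genes. No loop was listed in either window in pro-metaphase, when the whole list held 84. From ana/telophase to late G1 the alpha window held 1, 4, 7 and 6 loops and the beta window 1, 4, 4 and 5. Per Mb the beta window had 0.833, 3.33, 3.33 and 4.17, and the whole lists held 0.344, 2.67, 3.68 and 4.30. A window counts only loops with both anchors inside it, whereas the whole-list density counts every loop. Where 1 anchor was enough, late G1 had 14 alpha and 5 beta loops. The beta loop of ana/telophase, with a deposited p-value of 0.00103, was lost when only loops with a p-value of at most 0.1 of the largest in the list were kept, and the alpha loop (0.000262) was not.

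The beta loop joined chr7:110940001-110960000, on the low side, to chr7:111000001-111030000, on the side of the locus control region. Its low anchor kept these coordinates to late G1, and its high anchor was 111010001 to 111030000 from early G1 on. The deposited observed contact signal was 39.2, 76.1, 95.6 and 108 from ana/telophase to late G1, against an expected 8.01, 11.6, 10.5 and 14.6. The observed/expected ratios were 4.89, 6.56, 9.10 and 7.45, each above the list median of 3.32, 3.38, 3.59 and 3.28.

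The anchors of this loop hold the sites described above. In ana/telophase CTCF overlapped both anchors and Rad21 only the low one. CTCF at the high anchor was then the peak of chr7:111023033-111023291 alone. Its fold of 7.01 ranked 32139 among the 33127 CTCF peaks of that list, near the bottom. From mid G1 on both proteins overlapped both anchors, as the high-side site chr7:111021648-111021952 was then listed for Rad21.

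In the lists from early G1 on, the same low side was also joined to places farther up. A loop to 111050001 to 111070000, listed to 111060000 in early G1, had ratios of 3.80, 2.69 and 5.29, and its high anchor never held Rad21. Under the 20 kb rule it also matched the ana/telophase loop. The loop to the region of the site at 111091250 had ratios of 5.00, 4.29 and 3.98. In late G1 its high anchor, 111080001 to 111090000, ended just below that site, so neither protein was counted there. Away from the genes, a loop from 111380001 to 111400000 reached 111480001 to 111500000 in early G1 and 111490001 to 111510000 afterwards. Its ratios were 5.93, 4.56 and 5.37, and its high anchor held neither protein. A loop between 111100001 to 111120000 and 111310001 to 111330000 was listed in late G1 only (4.43).

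The alpha loop of ana/telophase joined chr11:32080001-32100000 to chr11:32180001-32200000, which covers the genes, with an observed signal of 24.8 against an expected 9.09. Its ratio of 2.73 was below the list median of 3.32, at the 26.1 percentile. Both proteins overlapped both anchors.

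In early G1 this contact was listed as a pair of loops. The loop from 32080001 to 32090000 reached 32200001 to 32230000 (55.4 against 10.1, ratio 5.50), past the genes to the high-side sites. The other joined 32100001 to 32160000, which includes several of the low-side sites, to 32180001 to 32230000 (54.9 against 14.3, ratio 3.83). In mid G1 the corresponding ratios were 4.85 and 3.76. In late G1 both fell into a single listed loop between 32080001 to 32160000 and 32180001 to 32240000 (70.8 against 16.1, ratio 4.41).

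The lists of mid G1 and late G1 also held a loop from the lower edge of the alpha domain. This loop, between 32040001 to 32060000 and 32220001 to 32240000 in mid G1, had a ratio of 3.82 there, and 5.26 in late G1 between 32040001 to 32070000 and 32210001 to 32230000. Its anchors were within 20 kb of those of the ana/telophase loop. A short loop on the low side, between 32080001 to 32100000 and 32130001 to 32150000, did not reach the genes and had low ratios, 2.12 and then 2.04. The third loop of the alpha window by late-G1 ratio, between 31850001 to 31870000 and 32030001 to 32050000, had ratios of 4.79 and 4.06 in these lists.

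From early G1 on the beta genes lay between the anchors of the loops around them. At the alpha locus both kinds of loop were listed. The genes lay in the high anchor in ana/telophase (2.73), early G1 (3.83), mid G1 (3.76) and late G1 (4.41), and between the anchors of the loops with ratios of 5.50, 4.85, 3.82 and 5.26. In late G1 the median ratio was 3.92 (1.88 to 5.26) over the 6 alpha loops and 5.29 (3.98 to 7.45) over the 5 beta loops, and these ranges overlapped.

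**Figure D4:**
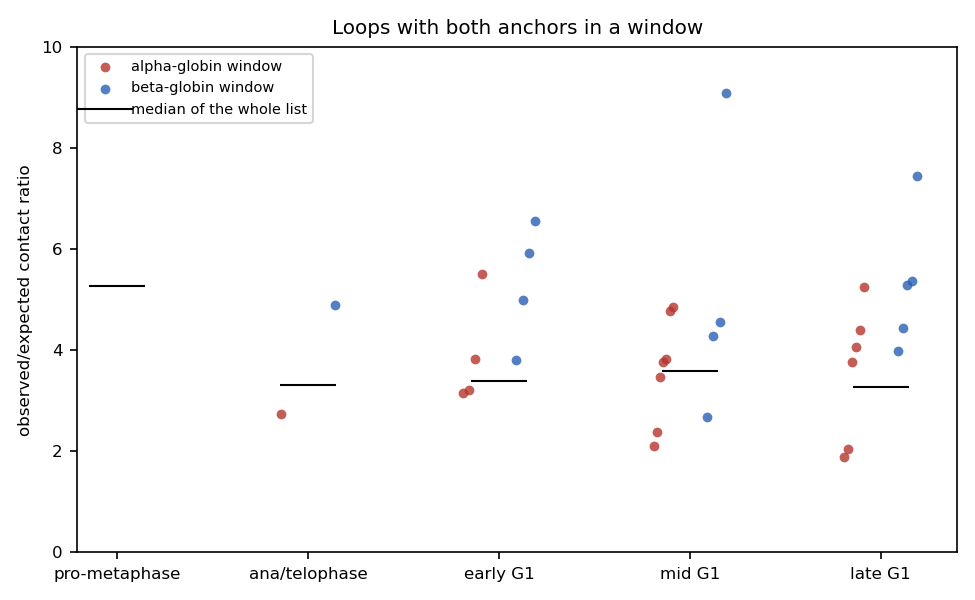
Deposited observed/expected contact ratio of every loop with both anchors in the alpha window (red) or the beta window (blue) by stage, with the median of the whole loop list (black dashes). The highest point at each stage from ana/telophase on is the beta loop around the genes, from 4.89 to 9.10.

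Of the late-G1 loops, 2 of 6 in the alpha window (33.3%, interval 4.33 to 77.7%) and 2 of 5 in the beta window (40%, interval 5.27 to 85.3%) had a match in ana/telophase, against 8.19% of the list. The list share is inside both intervals. At each locus both late-G1 loops matched the same single ana/telophase loop. The beta share was 20% with a match within 10 kb, and the alpha share 14.3% over late-G1 loops with at least 1 anchor in the window and 50% with a match within 40 kb. In pro-metaphase it was 0 of 6 (interval 0 to 45.9%) and 0 of 5 (interval 0 to 52.2%), against 0.794%. In early G1 it was 4 of 6 and 4 of 5, against 64.1%, and in mid G1 6 of 6 and 4 of 5, against 81.1%.

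Both proteins overlapped both anchors in 5 of 6 late-G1 alpha loops (83.3%, interval 35.9 to 99.6%) and in 1 of 5 beta loops (20%, interval 0.505 to 71.6%), against 51.3% of the list. These intervals overlap, so the difference was not resolved with so few loops. With anchors widened by 10 kb the shares were 100% and 60%, and over loops with at least 1 anchor in the window 50% and 20%.

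A stripe is a line of contacts between a fixed anchor and a stretch of chromosome. From early to late G1 each list had 1 stripe over the alpha window, which reached the genes. None lay over the beta window at any stage. The whole lists held 0.665, 0.665 and 0.662 stripes per Mb at these stages, and a window also counts stripes that only cross it. Counts of 1 and 0 therefore do not tell the loci apart. The anchor of the alpha stripe lay below the window, so this stripe was chosen after its values had been seen. From early to late G1 the anchor was 31570001 to 31590000, 31560001 to 31610000 and 31560001 to 31590000, or 110, 90 and 110 kb below the window. From it the body ran from 31720001 to 32200000 (480 kb), 32230000 (510 kb) and 32210000 (490 kb), ending 3, 33 and 13 kb past the genes.

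Its strength, the deposited ratio of observed to expected sums, was 2.88, 3.10 and 2.81, near the list medians of 2.88, 2.97 and 2.81. The late-G1 anchor held a CTCF peak at chr11:31575371-31575777 with a fold of 20.2 and a Rad21 peak with 15.5. From ana/telophase to mid G1 the CTCF folds at this place were 17.4, 32.2 and 23.5, and the Rad21 folds 5.26, 13.4 and 19.1. Neither protein was listed there in pro-metaphase. From the same anchor a loop reached 31840001 to 31860000 in early G1, with a ratio of 12.1, in the top of the list at the 99.5 percentile. The matching loops had 8.72 in mid G1 and 11.1 in late G1.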

How the data were processed

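Lists of peaks (12, for CTCF and Rad21), domains (5), loops (5) and stripes (10) were used, all in mm9. Per the submitters' processing notes, ChIP-seq was handled with MACS2 2.1.0, Bowtie 0.12.7, bedtools 2.27.1 and SAMtools 1.7, and Hi-C with HiC-Pro and Bowtie2. How domains, loops and stripes were called was not given in the sources used here. Samples were grouped by assay and stage from their titles, and each list is 1 pooled list, from replicates that the peak names say were merged and downsampled.

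Each deposited peak carries a fold enrichment (a ratio), a −log10 q and a score, all by the authors. The deposited loops carry an observed and an expected contact signal and a p-value, and the deposited stripes an observed/expected ratio as strength, per the file headers. The scaling of the contact values was not given in the sources used here either.

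SciPy 1.17.1, pandas 2.3.3 and NumPy 2.4.6 under Python 3.11.15 handled the intervals, and Matplotlib 3.10.9 drew the plots. All 5 interval functions passed on simulated data against bedtools 2.31.1 or direct search. Peaks matched when sharing at least 1 bp. A boundary is a distinct domain start or end, and boundaries matched within 20 kb. Loops matched when both pairs of anchors lay within 20 kb, and a loop was in a window when both anchors were. An anchor held a protein when a peak overlapped it.

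The windows, members and motifs were chosen with earlier results of these data known. Regions named were CTCF or Rad21 sites within 100 kb of the genes, the 5 strongest late-G1 CTCF sites per window, domains holding the genes, boundaries and loop anchors within 50 kb of them, and the 3 late-G1 loops with the highest ratio per window. A site or loop outside this rule was chosen after its values were seen. Gene names, order and promoters came from RefSeq tables of GRCm38.p6, and no coordinate was converted. Alternatives covered overlap, match distance, thresholds, nesting and a narrower region. Capture-C, RNA polymerase II and input samples were not analysed here.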

Additional observations from a re-analysis of the deposited data

How the results depend on the processing

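No paired analysis was possible because the deposited lists are pooled over replicates and carry no replicate number, and for the same reason no replicate could be left out. Of the alternatives for the main counts and shares, 156 left a share inside its 95% interval or a count near the main one, and 34 did not. With so few features these intervals are wide, and some of the 156 still moved far: the alpha boundaries found in pro-metaphase were 25% within 10 kb and 75% within 40 kb, and the loops found in ana/telophase were 66.7% at each locus within 250 kb of the genes. Beta loops with both proteins at both anchors were 60% with widened anchors and 33.3% within 250 kb, and the report gives the others. Limiting features to 250 kb around the genes gave, in late G1, 7 beta CTCF peaks, 13 alpha and 4 beta Rad21 peaks, 6 domains at each locus, 4 alpha and 3 beta boundaries and 3 loops at each. It also gave 100% of late-G1 features found for beta CTCF peaks, boundaries and loops in early G1, beta boundaries and loops in mid G1 and alpha CTCF peaks in mid G1, and 100% of alpha loops with both proteins at both anchors. The asynchronous list as reference gave 100% for alpha CTCF in mid G1, and anchors widened by 10 kb gave 100% for the alpha loops. Only domains in no larger domain gave 3 domains and 2 boundaries in late G1 at each locus. With them the late-G1 boundaries found were 0% for alpha in pro-metaphase, 0% for beta in early G1 and 50% for beta in mid G1. A match within 40 kb raised the beta boundaries to 92.9% in ana/telophase and 100% in early G1 and mid G1. Keeping only loops whose p-value was no more than 0.1 of the largest in their list gave 0% of beta loops in ana/telophase and 100% in early G1 and mid G1. Loops with at least 1 anchor in the alpha window numbered 14 in late G1. Keeping to the late-G1 domain that holds the genes, with 10 kb added on each side, an alternative added after seeing the data, left 3 loops at each locus. The cause of these shifts was not tested beyond the smaller region or list that each alternative takes. Depth per sample is unknown and limits every absence stated here.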
